A study of Mus musculus with 6 samples.

Results

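The genes described here are 10 markers of cortical and hippocampal interneurons, the local inhibitory neurons of the forebrain. They are Pvalb, Sst, Vip, Npy, Cck, Lhx6, Dlx1, Dlx2, Dlx5 and Reln, chosen by name and matched by gene symbol among the 54532 gene identifiers counted in each library. All 10 were found, and all 10 passed the filter on low counts that left 16731 genes for testing.

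RNA sequencing was performed on whole brains of C57BL/6J mice at postnatal day 14, with 3 control and 3 Mphosph8 mutant libraries. Per the labels, controls carried 1 floxed Mphosph8 allele (Mphosph8fl/+ Nestin-Cre+), and mutants carried 2 (Mphosph8fl/fl Nestin-Cre+, labelled Mphosph8∆n). Both groups thus carried the Nestin-Cre transgene, a recombinase driven by nestin regulatory sequence in neural progenitors, so that neurons and the glia of neural origin both lose the floxed exon. The labels thus make the controls heterozygous for the deletion, whereas the study's text names the transgene but no floxed allele for them, and which of these holds cannot be told from the counts. Mphosph8 encodes MPP8, a subunit of the HUSH complex, which silences genes and transposable elements through repressive histone methylation.

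Interneurons arise in the ganglionic eminences of the embryonic forebrain, where the homeobox factors Dlx1, Dlx2 and Dlx5 and, in the medial eminence, the LIM factor Lhx6 act. After migration they settle into classes told apart by parvalbumin (Pvalb), somatostatin (Sst), vasoactive intestinal peptide (Vip), neuropeptide Y (Npy), cholecystokinin (Cck) and reelin (Reln). Many of them die in the first weeks after birth, and gamma protocadherins, adhesion proteins encoded in 1 gene cluster, are required for the survival of those that remain. The comparison here is of transcripts of these classes between genotypes at an age when that cell loss is largely over.

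None of the 10 genes is confined to cortical interneurons in a whole brain. Pvalb is also made by Purkinje cells, Cck by cortical excitatory neurons, Reln by cerebellar granule cells and Cajal-Retzius cells, and Dlx genes by striatal and olfactory bulb neurons. In such bulk samples, fewer cells of a type and less RNA per cell cannot be told apart.

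The promoters of the 4 neuropeptide genes are shown because Cck was the only one of them whose groups did not overlap in the comparison. Each sequence is the 100 bases before the annotated start, from RefSeq on GRCm38.p6, read 5′ to 3′ on the strand of the gene. Capitals mark the cyclic AMP response element of Sst, the shorter core TGACGT in Vip and the related element TGCGTCA in Cck.
Cck, chr9:121495695-121495794, minus strand: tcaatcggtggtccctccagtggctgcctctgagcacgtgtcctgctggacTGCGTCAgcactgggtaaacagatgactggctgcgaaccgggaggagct
Sst, chr16:23890845-23890944, minus strand: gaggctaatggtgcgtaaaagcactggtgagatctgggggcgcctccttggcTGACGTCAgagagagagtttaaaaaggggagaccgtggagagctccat
Vip, chr10:5639118-5639217, plus strand: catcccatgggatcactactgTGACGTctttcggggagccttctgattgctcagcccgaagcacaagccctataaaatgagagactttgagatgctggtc
Npy, chr6:49822610-49822709, plus strand: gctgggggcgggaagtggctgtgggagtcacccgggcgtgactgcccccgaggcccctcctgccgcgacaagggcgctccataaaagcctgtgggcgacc

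The palindrome TGACGTCA lay 48 to 41 bases before the Sst start, and the Cck element 49 to 43 bases before its own. Searched on both strands of the 250 bases before each start, TGACGTCA was present in 1.55% of 32851 promoters, TGCGTCA in 1.75% and TGACGT, which TGACGTCA contains, in 6.47%. The Npy window printed above held no match to any of the 3. Of the 10 genes, 9 had an entry in the RefSeq table, and TGACGT was present in the promoters of Sst, Vip and Dlx2. These are matches of letters, and no binding was measured.

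The targeted gene was examined first. Mphosph8 was at 55.8, 48.6 and 70.7 CPM (counts scaled to a fixed normalised library size) in control replicates 1, 2 and 3, and at 33.1, 27.2 and 26.5 CPM in the mutants. The groups did not overlap, and the log2 fold change of mutant over control was -1.02 ± 0.12 (SE, n = 3 per group, adjusted p = 0.000157, edgeR quasi-likelihood test).

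None of the 10 interneuron genes passed an adjusted p of 0.05 in edgeR, where 0.628% of all tested genes did. At an unadjusted p under 0.05, 2 passed, beside 6.51% of all genes. These were Cck, lower in mutants like 2.41% of all genes, and Lhx6, higher like 4.09%. DESeq2 called 1 of the 10, which was Cck, beside 0.529% of its genes, or 0.124% in the lower direction, and limma-voom called 0, beside 0.586%. The groups of 3 did not overlap for 3 of the 10, beside 11.6% of all genes. Of these, Cck and Dlx5 were lower in mutants, as were 5.42% of all genes, and Lhx6 was higher, as were 6.23%. The median log2 fold change of the 10 was -0.03, against -0.01 over all genes tested.

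**Figure D1:**
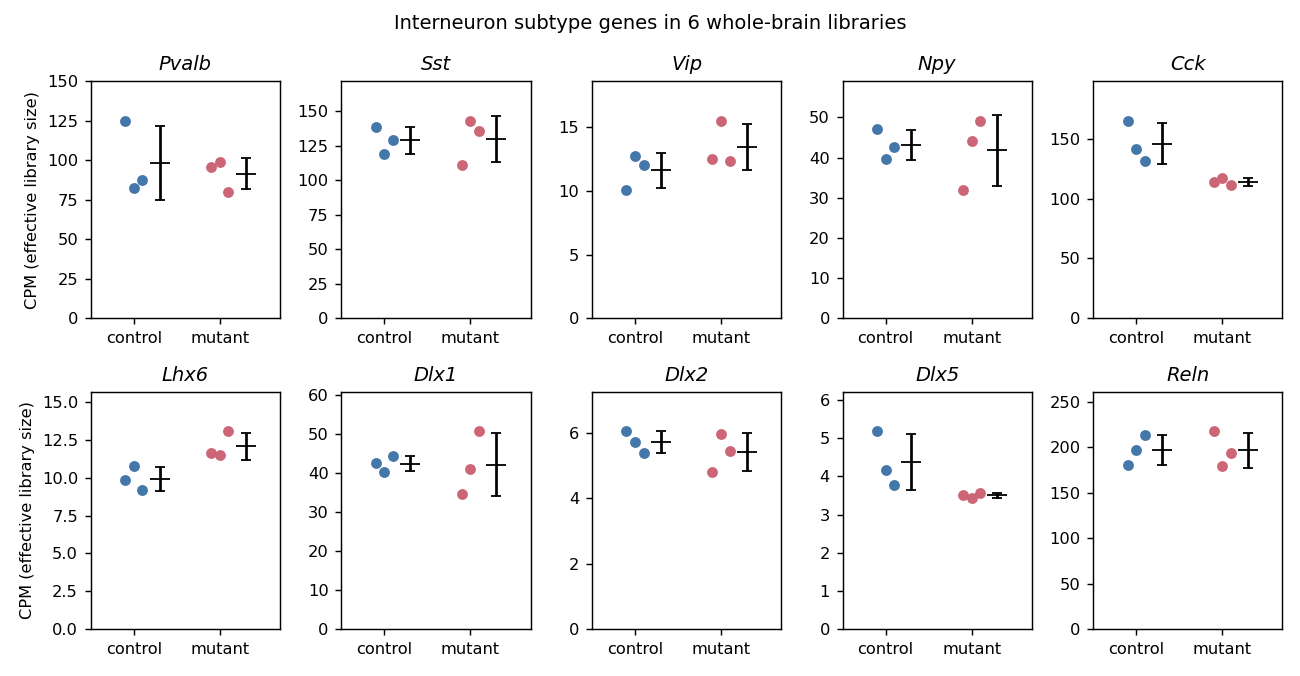
Level of each interneuron gene in CPM on a linear axis from 0, with 1 point per library (blue, control; red, mutant) and the mean ± SD of each group beside the points. The Cck points of the mutants, 111 to 117 CPM, all lie below the controls, whereas the groups overlap in Pvalb, Sst, Vip, Npy, Dlx1, Dlx2 and Reln.

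Cck, which encodes the peptide of a class of basket cells and is also transcribed in many cortical pyramidal cells, stood at 165, 141 and 131 CPM in controls and at 114, 117 and 111 CPM in mutants. Every mutant library was below every control, and the control spread (SD 17.4 CPM) exceeded that of the mutants (SD 2.99 CPM). Its level in mutants was 0.78 of that in controls (95% interval 0.686 to 0.886), a log2 fold change of -0.36 ± 0.09. The unadjusted p was 0.000714 and the adjusted p 0.0919, so Cck did not pass the main edgeR test.

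The side of the threshold on which Cck fell depended on the setting, while its sign did not. DESeq2 gave a log2 fold change of -0.36 with an adjusted p of 0.0324, and edgeR with no filter on low counts, which called 0.75% of its genes and 0.208% as lower, gave -0.36 with an adjusted p of 0.00729. Scaling each library to the GABA genes Gad1, Gad2 and Slc32a1 gave -0.40 with an adjusted p of 0.0402, beside 0.669% of genes called and 0.191% called lower. That scaling moved the median of all genes by -0.04, as much as it moved Cck, and Gad2, on which it partly rests, was itself 0.21 higher in mutants. With limma-voom the adjusted p was 0.114. Without control replicate 1, whose Cck level was the highest, the log2 fold change was -0.26 and the adjusted p 0.394.

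**Figure D2:**
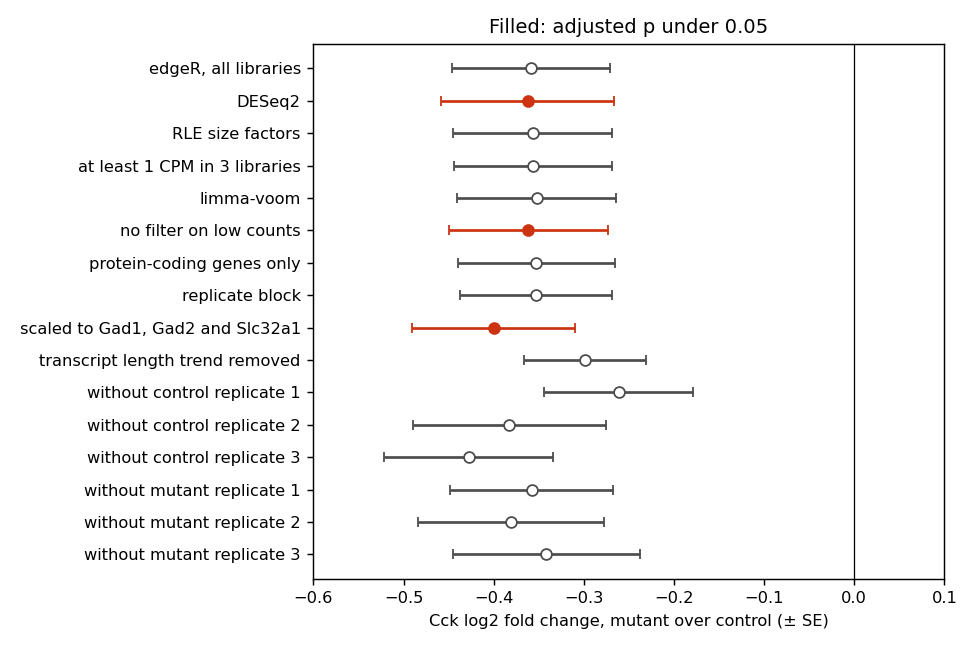
Log2 fold change of Cck, mutant over control, with its SE in the main edgeR fit and 15 alternatives, with filled points where the adjusted p was under 0.05. All 16 values are negative, from -0.43 without control replicate 3 to -0.26 without control replicate 1, and 3 of them passed.

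Since excitatory neurons also transcribe Cck, it was set against their markers. The summed level of the 10 excitatory markers ran from 2544 to 2853 CPM in controls and from 2725 to 3163 CPM in mutants, none of the 10 passed the test, and the least abundant was not at 0. On the log2 scale, Cck relative to that sum averaged -4.22 ± 0.15 in controls and -4.67 ± 0.15 in mutants (SD, n = 3 each), with no overlap and the exact permutation test (two-sided) gave p = 0.1, its lower limit with 3 libraries a group. Camk2a alone made up 61.2% to 69.0% of that sum and had a log2 fold change of 0.19 ± 0.11. Of the 10 markers, 6 were negative (median -0.04), beside 8764 of the 16731 genes tested. Without Camk2a the difference in the Cck ratio was -0.30, in place of -0.45, still with no overlap and the same p. Both ratios were formed after the Cck groups were seen not to overlap, so neither adds separate support. Myelin transcripts moved with the groups in the same direction as Cck. All 8 oligodendrocyte markers had negative log2 fold changes with a median of -0.47, and their summed level was 21576 to 25839 CPM in controls and 17129 to 19850 CPM in mutants. Of the 8, Mog and Cldn11, genes of the myelin sheath, fell in mutants (adjusted p = 0.0351 and 0.0496), calls that were both lost without control replicate 1, 2 or 3 or mutant replicate 2 or 3. Of 9 choroid plexus, vessel and blood markers, Ttr, the choroid plexus transthyretin, was at 1381 to 1671 CPM in controls and 1018 to 1214 CPM in mutants, whereas the other 8 summed to 602 to 664 CPM and 554 to 678 CPM, with 5 negative and 3 positive log2 fold changes. The part of these cell types in the Cck value was not tested.

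The groups overlapped for the other neuropeptides. Sst, the peptide of dendrite-targeting Martinotti cells, was at 139, 119 and 129 CPM in controls and 111, 143 and 136 CPM in mutants. The lowest and the highest of the 6 values were both mutants, and the log2 fold change was 0.01 with a 95% interval of -0.19 to 0.21. The difference between Cck and Sst was itself examined, and the log2 ratio of Cck to Sst was 0.36 lower in mutants on average, with overlapping groups (exact two-sided permutation p = 0.2, n = 3 each).

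Npy, found in neurogliaform cells and in many Sst cells, was at 47.2, 39.8 and 42.5 CPM in controls and at 32.0, 44.1 and 49.2 CPM in mutants. The mutants spanned the whole control range, and the log2 fold change was -0.05 with a 95% interval of -0.31 to 0.22. Npy and Sst varied together within groups (Pearson's r = 0.90 over the 6 deviations from group means, which share library and depth), both being lowest in mutant replicate 1 among the mutants and highest in control replicate 1 among the controls.

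Vip, which marks interneurons that inhibit other interneurons, was at 10.1, 12.7 and 12.01 CPM in controls and at 12.5, 15.5 and 12.4 CPM in mutants. Control replicate 1 was the lowest and mutant replicate 2 the highest, and the remaining 4 libraries lay within 12.01 to 12.7 CPM. The log2 fold change was 0.21 with a 95% interval of -0.07 to 0.50, on raw counts of 152 to 208 per library.

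Pvalb, the calcium-binding protein of fast-spiking basket and chandelier cells, was at 125, 82.5 and 87.6 CPM in controls and at 95.7, 98.8 and 80.2 CPM in mutants. Control replicate 1 alone stood above the other 5 libraries. The log2 fold change was -0.11 with a 95% interval of -0.37 to 0.16, and it was 0.10 without control replicate 1. The 11 cerebellar markers, whose Purkinje cells also make parvalbumin, summed to 1909 to 2108 CPM in controls and 1930 to 2096 CPM in mutants, none passed the test, and the log2 ratio of Pvalb to that sum differed by -0.06 (exact two-sided permutation p = 0.8, n = 3 each). The median of the 11 was -0.08, near the value of Pvalb, and 8 were negative, beside 8764 of the 16731 genes tested. The Purkinje cell markers Pcp2, Calb1, Car8 and Ppp1r17 were among these 8, from -0.20 to -0.08, and summed to 366 to 445 CPM in controls and 343 to 375 CPM in mutants. Their part in the Pvalb value was not tested.

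Reln, the secreted glycoprotein of neurogliaform, Cajal-Retzius and cerebellar granule cells, was at 180.4, 197 and 214 CPM in controls and at 218, 179 and 193 CPM in mutants. The groups covered nearly the same range, and with 2401 to 3173 raw counts per library the log2 fold change was -0.00 with a 95% interval of -0.19 to 0.19. None of the 6 Cajal-Retzius markers passed the test either, with a median log2 fold change of -0.05.

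Lhx6, required for interneurons of the medial eminence to migrate and to become Pvalb or Sst cells, was at 9.84, 10.8 and 9.18 CPM in controls and at 11.7, 11.5 and 13.1 CPM in mutants. All mutants were above all controls. The log2 fold change of 0.29 ± 0.13 (95% interval 0.02 to 0.55) had an unadjusted p of 0.0382 and an adjusted p of 0.711. It thus had the opposite sign to Cck, and the main products of the lineage it serves, Sst and Pvalb, gave log2 fold changes of 0.01 and -0.11. Of its exonic bases, 104 are shared with the annotated gene Gm27953 on the same strand.

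The Dlx genes lie as neighbouring pairs that share enhancers, Dlx1 with Dlx2 on chromosome 2, 9.4 kb apart, and Dlx5 with Dlx6 on chromosome 6, 9.2 kb apart. Dlx1 was at 42.6, 40.4 and 44.3 CPM in controls and at 34.6, 40.9 and 50.7 CPM in mutants. The controls fell within the span of the mutants, and the log2 fold change was -0.01 with a 95% interval of -0.25 to 0.23. Dlx1 overlaps 335 exonic bases of the antisense gene Dlx1as, which was looked up after the values of Dlx1 were seen and had a log2 fold change of -0.20 ± 0.24. Dlx2 was at 6.05, 5.71 and 5.40 CPM in controls and at 4.80, 5.97 and 5.45 CPM in mutants, again with overlap, and its log2 fold change was -0.08 with a 95% interval of -0.43 to 0.27.

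Dlx5 was at 5.19, 4.17 and 3.78 CPM in controls and at 3.52, 3.43 and 3.56 CPM in mutants. Although the groups did not overlap, the counts were the lowest of the 10 genes, 44 to 78 per library, and the log2 fold change of -0.32 ± 0.20 had a 95% interval of -0.73 to 0.09 and an adjusted p of 0.884. Its partner Dlx6, singled out after its values were seen, had the opposite sign, with 7.85, 5.93 and 6.48 CPM in controls, 7.76, 8.21 and 8.29 CPM in mutants and an adjusted p of 0.875. The log2 ratio of Dlx5 to Dlx6 averaged -0.63 in controls and -1.21 in mutants without overlap, a difference of -0.58 (exact two-sided permutation p = 0.1, the smallest possible with n = 3 each). This ratio was formed after the opposite signs of Dlx5 and Dlx6 were seen, so it adds no separate support. The ratio of Dlx1 to Dlx2 differed by 0.06 on the same scale, with overlapping groups.

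**Figure D3:**
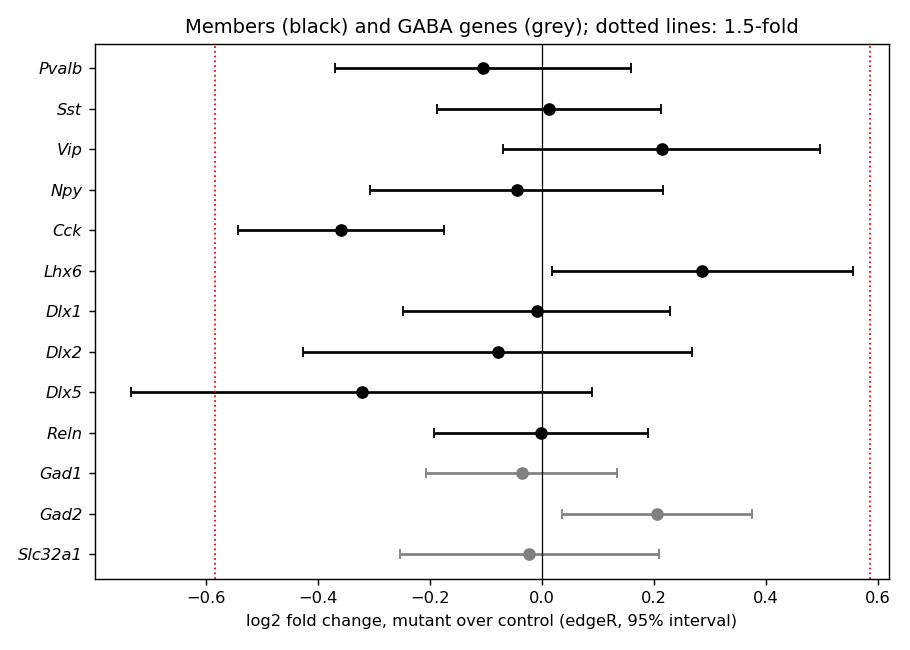
Log2 fold change of mutant over control with its 95% interval (edgeR, n = 3 per group) for the 10 interneuron genes in black and 3 GABA genes in grey, with dotted lines at a 1.5-fold change in either direction. The interval of Dlx5, -0.73 to 0.09, is the only one of the 10 that crosses a dotted line, and those of Cck and Lhx6 do not include 0.

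The intervals bound the differences these 6 libraries leave possible. For 9 of the 10 genes the 95% interval lay within a 1.5-fold change in either direction, beside 74.3% of all genes tested, and for all 10 it lay within a 2-fold change, beside 91.5%. The summed level of the 10 genes was 653 to 731 CPM in controls and 637 to 659.6 CPM in mutants, a sum in which Reln, Cck and Sst weigh most.

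Between genes, levels were compared per kilobase of annotated exonic length. That length joins the exons of all annotated transcripts of a gene and can exceed that of its mRNA, so the order also depends on the annotation. Sst was the most abundant at 179.5 CPM per kb (mean of 6 libraries), followed by Cck at 99.6, Pvalb at 91.2 and Npy at 75.0 CPM per kb. Reln at 8.30, Dlx1 at 7.83, Vip at 3.69, Lhx6 at 2.29, Dlx2 at 1.95 and Dlx5 at 1.74 CPM per kb formed the lower part of the order. Sst was above Cck, Npy above Reln, Dlx1 above Vip and Vip above Lhx6 in 6 of 6 libraries without overlap of their ranges. The ranges of the other neighbours in the order overlapped, and Reln exceeded Dlx1 in 3 of the 6 libraries only.

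Control replicate 1 stood apart from the other libraries in a way that touched the short members. Genes with exons under 1 kb in total were higher there by a median of 0.24 on the log2 scale than their 6-library mean, and those over 8 kb were lower, at -0.08. Across 11355 genes the correlation of this deviation with log2 length was -0.51 in control replicate 1, and from -0.00 to 0.23 in the other 5 libraries, as a description over genes, which are not independent replicates. At the lengths of Npy, Sst, Pvalb and Cck, the trend in control replicate 1 amounted to 0.25, 0.23, 0.19 and 0.17, and at that of Reln to -0.14. Mutant replicate 1 also stood apart, with a chi-square per degree of freedom of 12.1 and 11.45 against the other mutants, which differed from each other by 3.67, and with the largest share of counts from the small RNA Bc1 (4.22%, against 1.97% to 3.60%). It was the lowest mutant for Sst, Npy, Dlx1 and Dlx2, and without it their log2 fold changes were 0.11, 0.11, 0.11 and -0.0037, none past the threshold. The same measure set control replicate 1 at 6.81 from control replicate 2 and 13.4 from control replicate 3. Control replicates 2 and 3 differed from each other by 5.94, so on this measure control replicate 1 was less clearly apart than mutant replicate 1. The measure is summed over raw counts, so abundant genes such as Bc1 weigh heavily in it. It also takes in Xist, with 27 counts in control replicate 3 and 16348 in control replicate 2. Control replicate 1 was the highest control for Pvalb, Sst, Npy, Cck, Dlx2 and Dlx5, and the lowest for Vip and Reln.

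**Figure D4:**
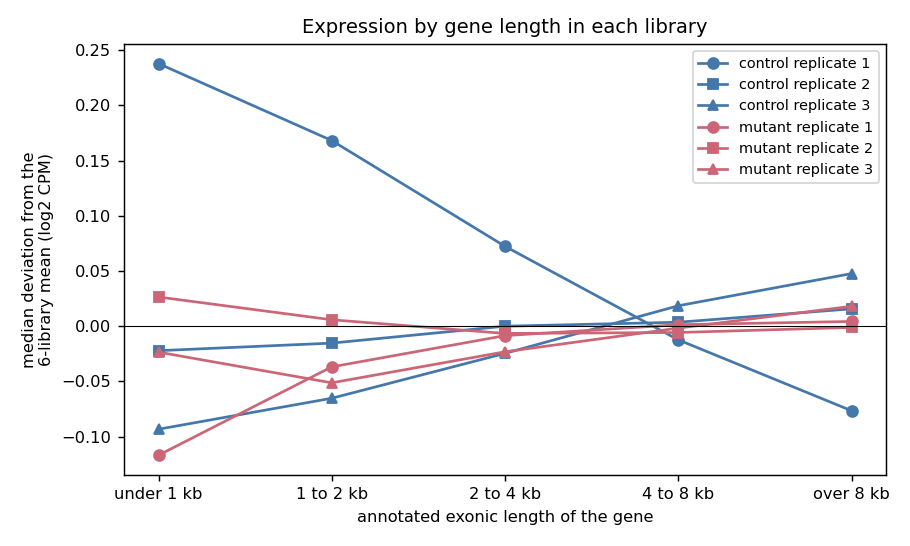
Median deviation of log2 CPM from each gene's 6-library mean, by annotated exonic length, with 1 line per library (blue, control; red, mutant) over 149 to 4681 genes per class. Control replicate 1 falls from 0.24 in the shortest class to -0.08 in the longest, and the other 5 libraries stay between -0.12 and 0.05.

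With the trend of each library removed, the log2 fold change of Cck was -0.30 ± 0.07 with an adjusted p of 0.0592, beside 0.675% of all genes called in that fit. Those of Pvalb, Sst and Npy became -0.03, 0.07 and 0.02, and none of the 10 genes passed the test. The correction was chosen after these data were seen.

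The wider set of interneuron genes, 71 in 5 lists, was described in the same way. Of the 69 tested, 1 rose in mutants (0.532% of all genes did) and 0 fell (0.0956% did), and the median log2 fold change was -0.02, against -0.01 over all genes. At an unadjusted p under 0.05, 4 of the 69 were higher (5.80%, beside 4.09% of all genes) and 2 lower (2.90%, beside 2.41%), shares near the background. The groups of 3 did not overlap for 7 of the 69, beside 11.6% of all genes. Among the 4 genes that make, load and take up GABA, none passed. Gad2, the synthesising enzyme of axon terminals, was at 96.5, 101 and 104 CPM in controls and at 108, 125 and 115 CPM in mutants without overlap (log2 fold change 0.21 ± 0.08, adjusted p = 0.573). Gad1, the enzyme of the cell body, and Slc32a1, the vesicular transporter, overlapped between groups, with log2 fold changes of -0.04 and -0.02.

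The 1 gene that rose was Cox6a2, a subunit of cytochrome c oxidase that in cortex is found in Pvalb interneurons. It was at 9.64, 7.25 and 8.57 CPM in controls and at 10.7, 16.7 and 14.5 CPM in mutants. All mutants exceeded all controls, and the log2 fold change of 0.72 ± 0.16 had an adjusted p of 0.0496, just inside the threshold. The call was lost with limma-voom (adjusted p = 0.0802), with a replicate block (0.0507, where 0.741% of all genes were called), with GABA gene scaling (0.0529) and without control replicate 1, 2 or 3 or mutant replicate 2 or 3, where adjusted p ran from 0.0574 to 0.275. These are 8 of the 15 alternative fits. The rest kept it, among them DESeq2 (0.0414), the fit with the length trend removed (0.0124), no filter (0.000186) and the fit without mutant replicate 1 (0.00168). Pvalb itself overlapped between groups, and the log2 ratio of Cox6a2 to Pvalb differed by 0.79 without overlap (exact two-sided permutation p = 0.1, the smallest possible with n = 3 each). Cox6a2 was taken up because it rose in these same values, so this ratio adds no separate support. The other subtype markers ranged from Pthlh, a secreted hormone of chandelier cells, at -0.29 ± 0.24 to Elfn1, a postsynaptic protein of Sst cells, at 0.31 ± 0.09 (adjusted p = 0.276).

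Of 16 other transcription factors of interneuron development, 15 were tested and none passed, with a median log2 fold change of 0.05. The largest was Npas1, which is found in interneurons and in the globus pallidus, at 7.25, 6.01 and 7.90 CPM in controls and 10.2, 8.96 and 10.5 CPM in mutants. Of the 15, it was the 1 whose groups did not overlap (0.49 ± 0.15, adjusted p = 0.265), beside 11.6% of all genes. The smallest was Lhx8, a factor of cholinergic and medial eminence neurons, at -0.14 ± 0.32.

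None of the 13 channels and perineuronal net genes of fast-spiking cells passed (median -0.04). They ranged from Hapln4, a link protein of the net, at -0.25 ± 0.09 (adjusted p = 0.465, no overlap) to Bcan, the proteoglycan brevican, at 0.07 ± 0.10.

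The receptors of the secreted members were in the same position, with 14 of 15 tested, none passing and a median of -0.06. Cckbr, the main brain receptor for Cck, had a log2 fold change of -0.15 ± 0.10 (adjusted p = 0.902) with overlapping groups. The least abundant receptors gave the widest errors, from Cckar at -0.44 ± 0.38 to Npy5r at 0.14 ± 0.26.

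**Figure D5:**
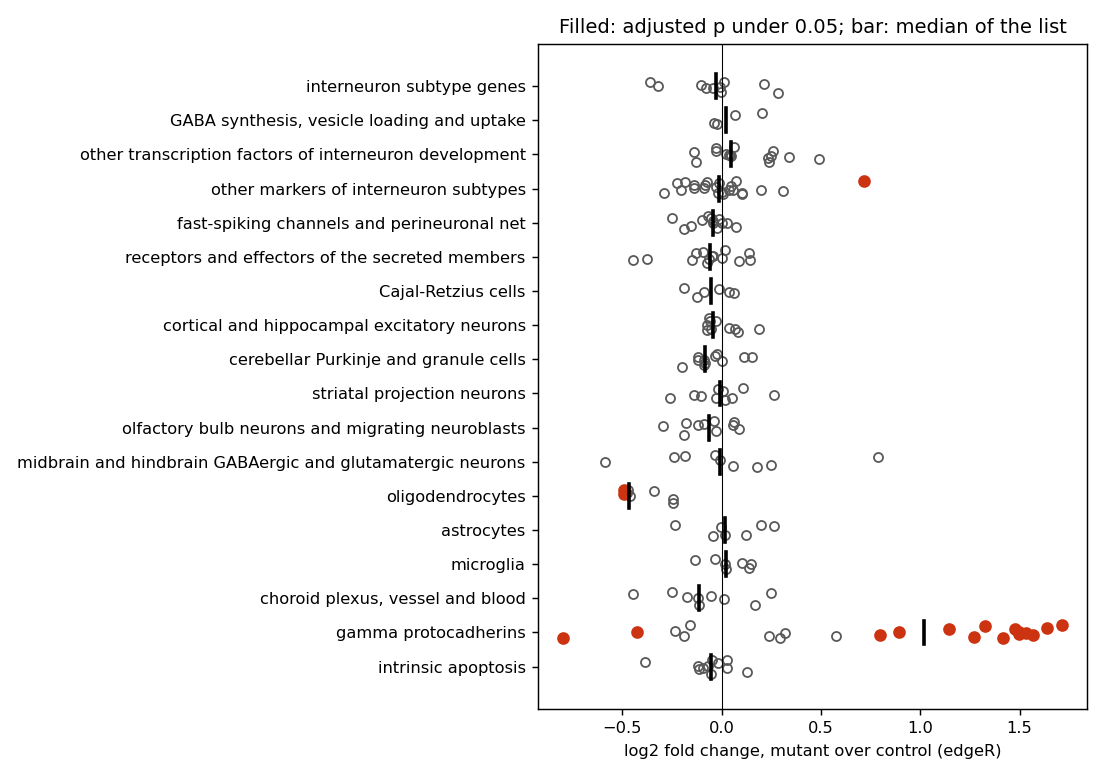
Log2 fold change of mutant over control (edgeR) for each tested gene in 18 lists, with filled points where the adjusted p was under 0.05 and a bar at the median of each list. The top 6 lists, from the 10 interneuron genes to the receptors, centre between -0.06 and 0.05 and hold 1 filled point, Cox6a2.

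The gamma protocadherins differed in the same libraries. Of 22 tested, 13 rose and 2 fell, beside 0.532% and 0.0956% of all genes, and their summed level was 341 to 405 CPM in controls and 439 to 589 CPM in mutants. The isoform Pcdhgc4, the one that cortical interneurons need to survive, was at 18.4, 20.9 and 24.0 CPM in controls and at 14.5, 9.85 and 12.1 CPM in mutants. It fell by 0.80 ± 0.14 on the log2 scale (adjusted p = 0.00723) with no overlap, although its adjusted p was 0.0647 without control replicate 3 and 0.0625 without mutant replicate 2. The other faller was Pcdhgc3, at -0.42 ± 0.09 (adjusted p = 0.0437), whose adjusted p was over 0.05 without control replicate 1, 2 or 3 or mutant replicate 2 or 3. Pcdhgc5 gave -0.23 ± 0.15 with overlapping groups. None of the 11 genes of intrinsic apoptosis, the pathway by which surplus interneurons die, passed the test, and their median log2 fold change was -0.05. In whole brains at an age when that loss is largely over, these values cannot show whether interneuron death differed.

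The libraries held 12956880 to 15223424 counts. Control replicate 3 held 1338 counts of the Y-linked gene Ddx3y and 27 of Xist, and the other 5 libraries held 0 and 11130 to 17697, so that 1 of 6 brains was male. Without that library, no interneuron gene passed the test, and the log2 fold changes of Cck and Lhx6 were -0.43 and 0.23.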

How the data were processed

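The authors made polyA-selected libraries from whole brains and sequenced single reads of 50 bases. Per the labels and the study's methods, reads were trimmed (Trim Galore 0.5.0), filtered against ribosomal, mitochondrial, phiX and adapter sequence (Bowtie2 2.3.4.1), aligned to GRCm38 with STAR and assigned to Ensembl genes with featureCounts (Subread 1.6.2). What was deposited are whole-number counts of reads for each gene, without normalisation. The strand setting of the counting is not given in the sources used here.

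Counts were fitted with edgeR 4.0.16 (R 4.3.3): filterByExpr, TMM, genotype as the only term, quasi-likelihood F test, with Benjamini-Hochberg adjustment over all 16731 genes tested and a threshold of 0.05. SEs come from the F statistic and 95% intervals from the t distribution. CPM values use TMM-scaled library sizes, and gene symbols and lengths come from GENCODE M21, which matched 54495 of 54532 identifiers. Ratios of levels were compared with the exact permutation test (two-sided) and were chosen after values were seen. Alternatives were DESeq2 1.42.0, limma-voom (limma 3.58.1), other filters and scalings, a replicate block, leaving out each library and, chosen after seeing the data, removal of a loess trend on transcript length.

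The members and lists were chosen with earlier results of these data known. Named genes were the 10 members, Mphosph8, 3 GABA genes, called genes (for the gamma protocadherins that rose, 1 only) and extremes of each list, Pcdhgc3, Pcdhgc4 and Pcdhgc5, Ddx3y and Xist as counts, and the gene most like each member by Pearson's r of log2 CPM. In simulated mutant against control counts for 16730 genes, edgeR recovered 80% of 100 genes changed 1.5-fold and 98% of 100 changed 2-fold. The changed genes were drawn only from those above a limit on mean counts. The simulated libraries held no trend with length, so these shares may be higher than in the real libraries. The study describes controls and mutants as littermates, but neither it nor the labels say which brains share a litter. Deviations of same-numbered samples correlated at 0.10, -0.05 and 0.08, and those of differently numbered samples at -0.16 to 0.09. These correlations cannot show which brains shared a litter, and samples were treated as unpaired. Nothing in the labels ties the 3 libraries of a group to separate litters, and p-values measure the spread between these samples.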

Additional observations from a re-analysis of the deposited data

How the results depend on the processing

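Mphosph8 stayed past the threshold in 15 of 15 alternative fits, with log2 fold changes from -1.13 to -0.85. The number of the 10 interneuron genes passing was 0 in the main fit, 1 (Cck) with DESeq2 (-0.36), with no filter on low counts (-0.36) and with scaling to Gad1, Gad2 and Slc32a1 (-0.40), and 2 at an unadjusted p. Leaving out each library gave 0 each time, with Cck from -0.43 to -0.26. The DESeq2 adjustment ran over 20210 genes and the unfiltered one over 32278; the cause of the lower adjusted p was not tested. Small differences changed sign, namely Sst with that scaling (-0.028, within its shift of -0.04 for the median of all genes), Npy with the length trend removed (0.023) and Reln among protein-coding genes (0.0038). Leaving out each library moved Pvalb from -0.22 to 0.10, Sst from -0.065 to 0.11, Npy from -0.18 to 0.11, Dlx1 from -0.17 to 0.11 and Reln from -0.082 to 0.064, none past the threshold. Vip, Cck, Lhx6, Dlx2 and Dlx5 kept their sign in all 15 fits, but sizes moved, for Vip to 0.096 without mutant replicate 2, for Dlx5 to -0.18 without control replicate 1 and for Dlx2 to -0.0037 without mutant replicate 1 and -0.16 at most. Of the wider interneuron genes, 1 passed, against 0 with limma-voom, GABA gene scaling or a fold change over 2, 6 at an unadjusted p, and 0 to 1 with each library left out. With a replicate block, which the labels do not call for, 0 of the wider genes passed and Cck was -0.35 (adjusted p = 0.0631). The oligodendrocyte markers passing, 2 in the main fit, numbered 0 to 5 over the alternatives. Scaling to the GABA genes also changed the split of all calls, from 89 higher and 16 lower to 80 and 32. Depth limited Dlx5 most, whose 44 to 78 counts per library gave an interval of -0.73 to 0.09.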

Other observations

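For each interneuron gene, the gene with the most similar pattern over the 6 libraries was sought among 10739 or 10740 genes with a mean of at least 10 CPM. The partners were Ndufb6 for Pvalb, Fam219b for Sst, 2810459M11Rik for Vip, Coa6 for Npy, Dad1 for Cck, Dnajc27 for Lhx6, Nfatc2 for Dlx1, Gabarapl2 for Dlx2, Sdf2 for Dlx5 and Sez6l for Reln, with Pearson's r from 0.988 to 0.996. None of these partners is another of the 10 genes. Over 6 points that share library and depth such values are easily reached, and 6 to 72 genes per member had an r over 0.95.

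Among the 10 interneuron genes themselves, deviations from the group means gave a positive r in 25 of 45 pairs, with a median of 0.08 and a range from -0.97 for Dlx2 and Reln to 0.94 for Cck and Dlx5. In the other lists of neurons, none of the 10 striatal, 10 olfactory bulb or 9 midbrain and hindbrain markers passed the test, with medians of -0.01, -0.06 and -0.01. Slc6a5, the glycine transporter of hindbrain inhibitory neurons, was at 46.2, 41.6 and 50.7 CPM in controls and at 39.2, 32.5 and 20.7 CPM in mutants without overlap (log2 fold change -0.59 ± 0.15, adjusted p = 0.139, edgeR). Over the 15 alternatives its adjusted p ran from 1.5e-06 to 1.00, under 0.05 with no filter, with GABA gene scaling (0.035) and without mutant replicate 1 (0.0036), and the value was -0.37 without mutant replicate 3. Pax7, a factor of dorsal midbrain neurons, was at 1.13, 0.952 and 1.15 CPM in controls and at 2.16, 1.64 and 1.82 CPM in mutants, also without overlap (0.79 ± 0.29, adjusted p = 0.483). Microglial and astrocyte markers held none that passed, with medians of 0.02 in both lists.

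The extremes of the remaining lists, none past the threshold unless stated, were as follows. Log2 fold changes ran from -0.19 (Trp73) to 0.06 (Lhx5) in Cajal-Retzius cells, from -0.08 (Neurod2) to 0.19 (Camk2a) in excitatory neurons and from -0.20 (Pcp2) to 0.15 (Cbln3) in the cerebellum. They ran from -0.26 (Drd1) to 0.26 (Foxp1) in the striatum and from -0.30 (Eomes) to 0.09 (Th) in the olfactory bulb. In glia they ran from -0.24 (Gfap) to 0.26 (Aldh1l1) in astrocytes, from -0.14 (Aif1) to 0.15 (Csf1r) in microglia and from -0.49 (Mog, which passed) to -0.24 (Cnp) in oligodendrocytes. Among choroid plexus, vessel and blood markers the values ran from -0.45 (Ttr, adjusted p = 0.0764 in edgeR, but 0.000456 with DESeq2, 0.0444 with limma-voom, 0.000809 with no filter and 0.0315 with GABA gene scaling) to 0.25 (Alas2), among apoptosis genes from -0.39 (Bbc3) to 0.13 (Bcl2), and among gamma protocadherins from -0.80 (Pcdhgc4) to 1.72 (Pcdhgb8), both of which passed.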
